A study of Mus musculus with 6 samples.

Results

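The genes described here are the integrin subunits, laminin chains and thrombospondins, taken as every row of the count table whose symbol begins with Itga, Itgb, Lama, Lamb, Lamc or Thbs and ends in the plain subunit, chain or member name. The rule found 41 genes among the 36291 rows: 18 integrin alpha subunits, 8 integrin beta subunits, 11 laminin chains and 4 thrombospondins. The integrins (26 genes) are called the receptors and the laminins and thrombospondins (15 genes) the ligands.

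The series title concerns the migration of cortical interneurons and Sip1, the older name of the transcription factor gene Zeb2. RNA came from eGFP-positive cells, targeted by an Nkx2-1-iCre driver and sorted from the telencephalon at E14.5 in mice of the Swiss strain. The wild-type (WT) group has 3 libraries, the knockout (KO) group has 3, and each of the numbers K77, K79 and K80 was borne by a WT and a KO library. The design text names the knockout as Sip1|Nkx2-1, so the deletion was driven in the Nkx2-1 lineage, and all libraries share the driver and the sort. The labels did not give the alleles of the WT embryos, the deleted part of the gene or how many embryos made a library. The p-values thus reflect library-to-library spread, which may be partly technical. Depth was 8323531 to 11069437 gene counts per library. Zeb2 held 5350 to 8094 counts in WT and 2759 to 3391 in KO libraries (log2 fold change -1.11, SE 0.138, edgeR adjusted p = 0.00116). The interneuron marker Lhx6, at 1060 ± 117 CPM (gene counts relative to the scaled library total) in WT and 1100 ± 147 in KO (SD, n = 3 each), was abundant in both groups. Of 10 markers of these interneurons 3 were called higher in KO (Gad2, Nkx2-1 and Sox6), against 3.64% of all tested genes. Another 2 were called lower (Dlx5, and Maf with a log2 fold change of -3.07), against 2.62% of all tested genes. Markers of radial glia and progenitors summed to 1590 to 1980 CPM in WT and 1550 to 1830 in KO libraries. Markers of cortical glutamatergic neurons summed to 212 to 450 CPM in WT and 234 to 293 in KO libraries. The part of any of these markers in the results below was not tested. Dlx5 lost its call without WT K77, WT K80, KO K79 or KO K80 (highest adjusted p 0.13), and Sox6 without WT K77 or any 1 KO library (highest adjusted p 0.0694). WT K79 held 26109 counts of the female-specific transcript Xist and 0 of the Y-linked Eif2s3y. The other 5 libraries held 13 to 28 Xist and 823 to 1276 Eif2s3y counts. WT K79 thus came from other embryos than WT K77 and WT K80. Sex was not balanced between the groups, since the 1 library with the female pattern was WT, and no fit held a term for sex.

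Integrins are cell surface receptors in which an alpha subunit is joined to a beta subunit, and they tie the extracellular matrix to talin, parvins and actin inside the cell. Laminins are secreted as trimers of an alpha, a beta and a gamma chain and form the sheet of the basement membrane, where radial glia attach and along which neurons can move. Thrombospondins are secreted matrix proteins that bind integrins, CD47 and other receptors and are known for promoting synapse formation. Zeb2 is mainly a repressor and binds E-boxes of the form CACCTG.

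Because Zeb2 is known for that motif, the 250 bases before each annotated start were searched for CACCTG on both strands, that is for CACCTG or CAGGTG. RefSeq promoters of build GRCm38.p6 were matched by symbol for 26 of the 41 genes (29 windows), and 8 windows of 8 genes held the motif. That was 27.6% of the members' windows, against 17.2% of the 32851 windows of all genes. Among genes called higher in KO below, Itga9 had 2 matches, starting 87 and 55 bases before the start. Itga3 had 1 match, starting 195 bases before one of its 2 starts. The called genes Itgb3 and Thbs1, and also Itga6, had no matched promoter and were not searched. The other windows with a match belonged to Itgb5, Itgb8 and Lama5, which were tested and not called, and to Itga11, Itgb6 and Lamb3, whose counts were too low to test. The windows of Itga9 (chr9:118711442-118711691, plus strand) and Itga3 (chr11:95076715-95076964, minus strand) are shown because these are the called integrin genes with a match, with the match in capitals.
Itga9: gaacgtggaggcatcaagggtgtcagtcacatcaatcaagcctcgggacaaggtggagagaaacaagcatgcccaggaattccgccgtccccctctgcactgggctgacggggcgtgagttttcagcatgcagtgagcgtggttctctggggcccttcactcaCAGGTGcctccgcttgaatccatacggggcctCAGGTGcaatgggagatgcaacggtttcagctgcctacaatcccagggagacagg
Itga3: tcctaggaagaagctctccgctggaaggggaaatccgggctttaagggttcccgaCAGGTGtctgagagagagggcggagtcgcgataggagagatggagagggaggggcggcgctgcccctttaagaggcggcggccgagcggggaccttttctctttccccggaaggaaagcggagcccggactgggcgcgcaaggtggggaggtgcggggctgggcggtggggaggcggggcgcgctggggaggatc
A match describes these letters only, and no binding was measured.

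In KO cells 3 integrin genes, Itga3, Itga9 and Itgb3, were higher and 1 thrombospondin gene, Thbs1, was lower, while no laminin chain passed the test. Counts were compared with the edgeR quasi-likelihood test at an adjusted p under 0.05 over 13835 genes. Of the 41 genes 28 passed the filter on low counts, 12 fell below it and Itgad had no counts. So 4 of 28 tested members were called, against 6.27% of all tested genes. For the 3 higher members the background was 3.64%, and for the 1 lower member it was 2.62%. Among the 28 tested members the groups did not overlap in 6 that lay higher and 1 that lay lower in KO, against 11.8 and 11.4% of all tested genes. With the K number as a block, where 6.13% of all tested genes were called higher and 4.45% lower, Itga6 joined the higher genes.

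**Figure D1:**
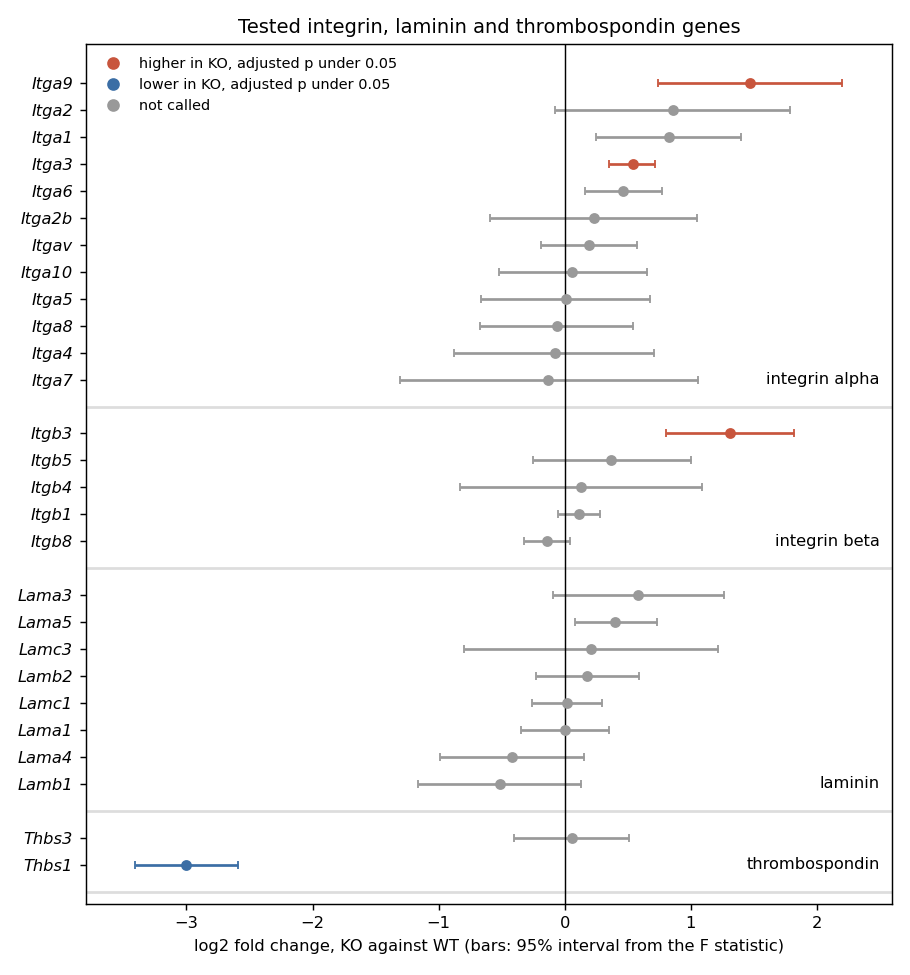
Log2 fold change, KO against WT (horizontal axis), of the tested members shown, grouped by role, with 95% intervals; colour marks genes called by edgeR. Thbs1 stands alone at -3.0, and Itga9, Itgb3 and Itga3 are the called genes on the right.

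Thbs1, which encodes the matrix glycoprotein thrombospondin 1, was the member that differed most. It held 1553, 1407 and 2448 counts in the WT libraries (K77, K79 and K80 in that order, as throughout) and 206, 210 and 241 counts in the KO libraries of the same numbers. Scaled, the WT libraries stood at 169, 135 and 232 CPM and the KO libraries at 24.8, 20.7 and 21.8 CPM. All KO libraries lay close together and far below the lowest WT library. The mean fell from 179 ± 49.4 to 22.4 ± 2.09 CPM (n = 3 each), an 8.0-fold difference (log2 fold change -3.0, SE 0.185, edgeR adjusted p = 4.66e-05). Within a K number the WT level was 6.84 (K77), 6.52 (K79) and 10.6 (K80) times the KO level. The call was kept without any 1 library (adjusted p 4.86e-06 to 0.00111).

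Genes of oligodendrocyte precursors moved in the same direction. Of 7 markers of that cell type 5 were called lower in KO (Gpr17, Sox10, Pdgfra, Cspg4 and Olig1), against 2.62% of all tested genes. The summed level of the 7 markers was 133 to 158 CPM in WT against 67.9 to 73.9 CPM in KO libraries. Mean Gpr17 was 8.20 ± 1.71 CPM in WT against 0.479 ± 0.115 in KO, and mean Sox10 was 2.88 ± 0.696 against 0.259 ± 0.243, with 0 Sox10 counts in KO K80. In these bulk samples fewer cells of a type and less RNA per cell cannot be told apart, and the part of these cells in the Thbs1 difference was not tested.

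The other thrombospondins did not follow Thbs1. Thbs3, a pentameric thrombospondin, held 324, 613 and 465 counts in WT and 301, 468 and 672 in KO, and the groups overlapped. The WT mean was 46.1 ± 11.9 CPM and the KO mean 47.8 ± 12.4 (log2 fold change 0.06, 95% interval -0.40 to 0.51, edgeR adjusted p = 0.926). Thbs3 shares 318 exon bases with Mtx1 on the opposite strand in the GENCODE annotation. Whether reads were counted by strand was not stated, so the Thbs3 level is uncertain. Thbs2 and Thbs4 were near the limit of detection and were not tested. Thbs2 had 3, 4 and 1 counts in WT and 10, 10 and 7 in KO, all KO libraries above all WT libraries. Fitted with no filter, Thbs2 gave a log2 fold change of 1.74 with an edgeR adjusted p of 0.0951. Thbs4 had 0, 9 and 0 counts in WT and 3, 3 and 8 in KO.

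**Figure D2:**
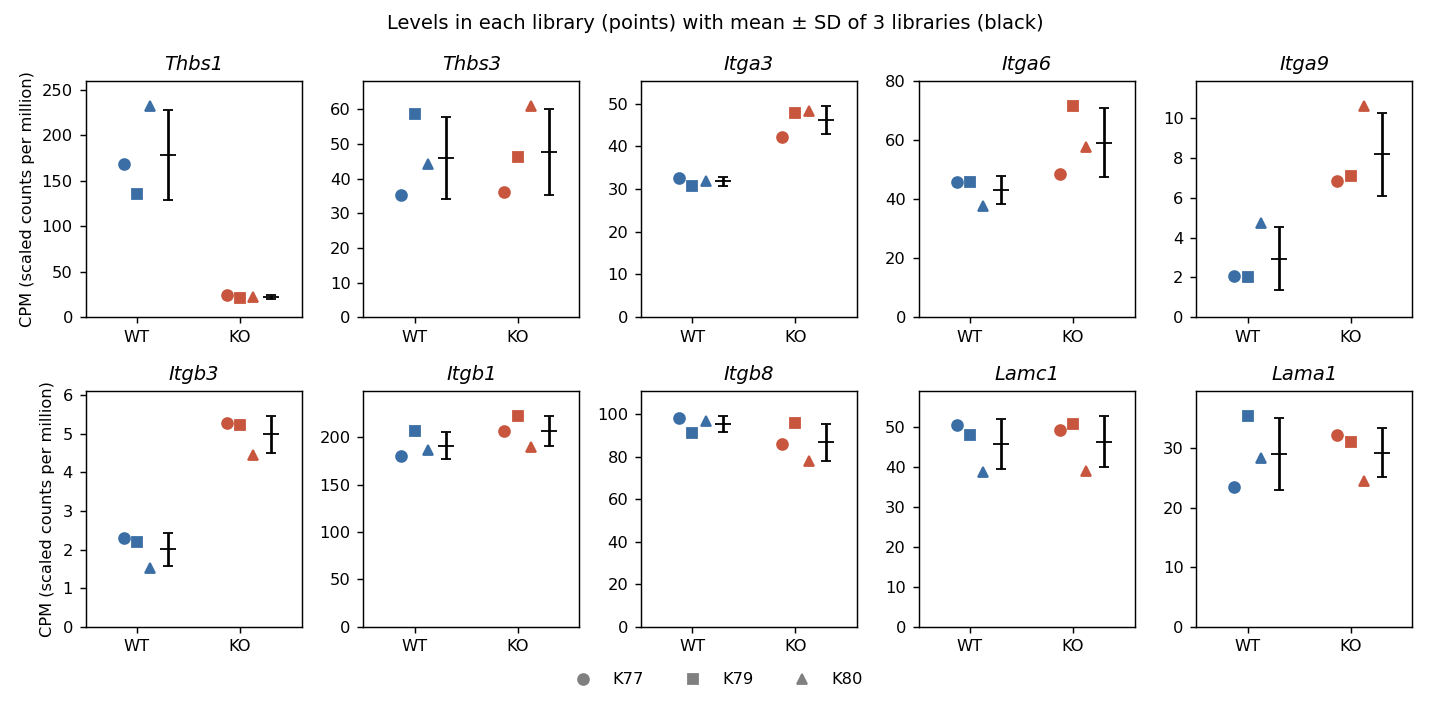
Level in CPM (vertical axes, from 0) of 10 members in each WT and KO library, with symbols for K77, K79 and K80 and black bars for the mean ± SD of 3 libraries. Thbs1 is low in all KO libraries, Itga3, Itga6, Itga9 and Itgb3 are higher in each KO than in each WT library, and the other 5 genes overlap.

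Of 12 tested alpha subunits 2 rose, Itga3 and Itga9, and 10 were not called. Itga3, which with Itgb1 makes a laminin receptor of migrating neurons and radial glia, held 300, 320 and 337 counts in WT and 352, 484 and 532 in KO. At 42.3 to 48.2 CPM each KO library was above the 30.7 to 32.7 CPM of WT. The mean rose from 31.8 ± 1.01 to 46.1 ± 3.28 CPM (a 1.45-fold difference, log2 fold change 0.54, SE 0.0827, edgeR adjusted p = 0.00383). The call was kept without any 1 library (adjusted p up to 0.0271) and without both K79 libraries (0.0484).

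Itga6, the other main alpha subunit of laminin receptors, held 420, 478 and 397 counts in WT and 404, 725 and 635 in KO. Scaled, WT stood at 45.8, 45.9 and 37.7 CPM and KO at 48.6, 71.5 and 57.6 CPM. The KO K77 library lay just above the highest WT library, and the other KO libraries lay well above. The means were 43.1 ± 4.71 and 59.2 ± 11.6 CPM (log2 difference 0.46, SE 0.137), with an edgeR adjusted p of 0.0848, and 0.024 with the K number as a block. DESeq2 also called Itga6 (adjusted p = 0.0188), as did edgeR without KO K77 (0.0276), and limma voom did not (0.0923).

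Itga9, whose integrin with Itgb1 binds tenascin and other matrix ligands, held 19, 21 and 50 counts in WT and 57, 72 and 117 in KO. The WT libraries stood at 2.07, 2.02 and 4.75 CPM and the KO libraries at 6.85, 7.11 and 10.6 CPM. The K80 libraries were the highest of their genotype, and the groups did not overlap. The mean rose from 2.94 ± 1.56 to 8.19 ± 2.10 CPM (2.77-fold, log2 difference 1.47, SE 0.326, edgeR adjusted p = 0.0266), and the blocked fit gave 0.00166. The call was lost without WT K77 (adjusted p = 0.0978), WT K79 (0.0626), KO K79 (0.0654) or KO K80 (0.137).

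Itgb3, the beta subunit of the vitronectin receptor and a partner of Itgav, was the called beta subunit. It held 21, 23 and 16 counts in WT and 44, 53 and 49 in KO, or 1.52 to 2.29 against 4.44 to 5.29 CPM. Every KO library was well above every WT library. The mean rose from 2.01 ± 0.423 to 4.99 ± 0.473 CPM (2.48-fold, log2 difference 1.31, SE 0.229, edgeR adjusted p = 0.00747). The call was kept without any 1 library (adjusted p up to 0.0418) and lost without both K79 libraries (0.0581). Its partner Itgav held 151, 160 and 123 counts in WT and 127, 202 and 157 in KO, with overlapping groups (log2 fold change 0.19, SE 0.171, adjusted p = 0.634).

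The abundant beta subunits were not called. Itgb1, the shared partner of most alpha subunits, held 1649, 2156 and 1961 counts in WT and 1720, 2254 and 2101 in KO. The WT mean was 191 ± 14.2 CPM and the KO mean 207 ± 16.0 (log2 fold change 0.11, 95% interval -0.05 to 0.28, edgeR adjusted p = 0.492). Itgb8, which with Itgav makes a receptor of latent TGF-beta, held 903, 952 and 1019 counts in WT and 717, 972 and 863 in KO (log2 fold change -0.14, 95% interval -0.32 to 0.04, adjusted p = 0.425). Itgb5, another partner of Itgav, held 44, 117 and 76 counts in WT and 71, 129 and 99 in KO, with overlap (log2 fold change 0.37, SE 0.28, adjusted p = 0.554). Itgb4, the partner of Itga6 in epithelia, held at most 13 counts (log2 fold change 0.13, adjusted p = 0.918).

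Of the other alpha subunits Itga1, a collagen receptor subunit, had no overlap, at 15, 20 and 26 counts in WT and 36, 37 and 32 in KO. Its log2 fold change of 0.83 (SE 0.257) had an edgeR adjusted p of 0.1. Itga2, another collagen receptor subunit, differed by 0.86 (SE 0.418, adjusted p = 0.322). The WT K77 library held 5 Itga2 counts and the other WT libraries 30 and 21. Itga10, Itga5, Itga8, Itga4, Itga7 and Itga2b lay between -0.13 and 0.23 with adjusted p of 0.809 to 0.991.

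Leukocyte integrins were at or near 0. Itgad had no count, Itgax 1 count in 1 KO library, and Itgal, Itgam and Itgb2 at most 5 counts in a library. Itgb7 and Itgb6 also stayed at or under 4 counts, and Itga11 and Itgae at or under 13. Markers of microglia and leukocytes summed to 3.36 to 4.03 CPM in WT and 3.26 to 3.97 in KO libraries.

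No laminin chain was called different between the genotypes. Of 9 tested, edgeR, DESeq2 and limma voom each called 0, and 1 (Lama5) had an unadjusted edgeR p under 0.05, as did 2538 of all 13835 tested genes. With 6.27% of all tested genes called, 0 of 9 is near the background and is no result about laminins as a group. The most abundant chain was the gamma chain Lamc1, with 462, 500 and 408 counts in WT and 410, 514 and 430 in KO. The WT mean was 45.7 ± 6.15 CPM and the KO mean 46.3 ± 6.41 (log2 fold change 0.02, 95% interval -0.26 to 0.30, edgeR adjusted p = 0.962). Lama1, the alpha chain of the early embryonic laminin, held 215, 369 and 298 counts in WT and 268, 314 and 270 in KO (95% interval -0.35 to 0.35, adjusted p = 0.998). The beta chain Lamb2 held 205, 273 and 174 counts in WT and 194, 302 and 226 in KO (log2 fold change 0.18, SE 0.182, adjusted p = 0.68).

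Lama5, an alpha chain of later basement membranes, was the laminin whose groups did not overlap. It held 72, 82 and 77 counts in WT and 94, 102 and 101 in KO, or 7.68 ± 0.318 against 10.2 ± 1.08 CPM (log2 difference 0.40, SE 0.146, edgeR adjusted p = 0.16). Lamb1, the beta chain that joins Lama1 and Lamc1 in the embryonic trimer, held 132, 145 and 62 counts in WT and 70, 77 and 87 in KO. WT K80 lay below all KO libraries while the other WT libraries lay above them. The log2 fold change of Lamb1 was -0.51 (SE 0.288, adjusted p = 0.402), and it was called lower only when WT K80 was left out (adjusted p = 0.0126). Lama3 stood highest in KO K77, with 180 counts against 94 and 157 in the other KO libraries and 60 to 124 in WT (log2 fold change 0.58, adjusted p = 0.35). Lama4, a laminin chain of blood vessels, differed by -0.42 (adjusted p = 0.449) and Lamc3 by 0.21 (0.862). Lama2 and Lamb3 held at most 12 counts in a library and were not tested.

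Markers of blood vessel cells, which make much of the laminin of the brain, were low, and their sums were similar in range. Endothelial markers summed to 17.8 to 33.2 CPM in WT and 15.9 to 27.8 in KO libraries, and markers of pericytes and meninges to 17.5 to 38.7 and 23.0 to 41.2 CPM. The median log2 fold change was -0.01 over the 9 tested endothelial markers and 0.68 over the 7 tested pericyte and meningeal markers. None of these markers was called by edgeR, and 1 pericyte and meningeal marker (Col1a2) was called with the block. Their part in the laminin counts was not tested.

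To order genes by level, CPM was divided by exon length in kilobases. On that scale Itgb1 led in both genotypes, at 46.8 ± 3.48 CPM per kb in WT and 50.6 ± 3.92 in KO, and held 80.4% of the summed beta subunits in WT and 81.2% in KO. Thbs1 came second of the 41 genes in WT at 29.5 ± 8.13 CPM per kb and eighth in KO at 3.70 ± 0.344. Thbs3 (9.56 ± 2.46), Itgb8 (8.64 ± 0.334), Itga3 (5.57 ± 0.177), Lamc1 (5.52 ± 0.744) and Itga6 (4.78 ± 0.521) followed in WT, while Lamc1 lay within its spread of both Itga3 and Itga6, and Thbs3 within its spread of Itgb8. The 3 WT libraries of Itga3 all lay above those of Itga6, an order that turned when the longest transcript was used as the length (6.54 ± 0.208 for Itga3 and 10.0 ± 1.09 for Itga6). Itga3 and Itga6 together made up 67.0 ± 2.18% of the summed alpha subunits in WT and 69.7 ± 3.57% in KO. Among laminins Lamc1, Lamb2 and Lama1 held the first places in both genotypes.

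**Figure D3:**
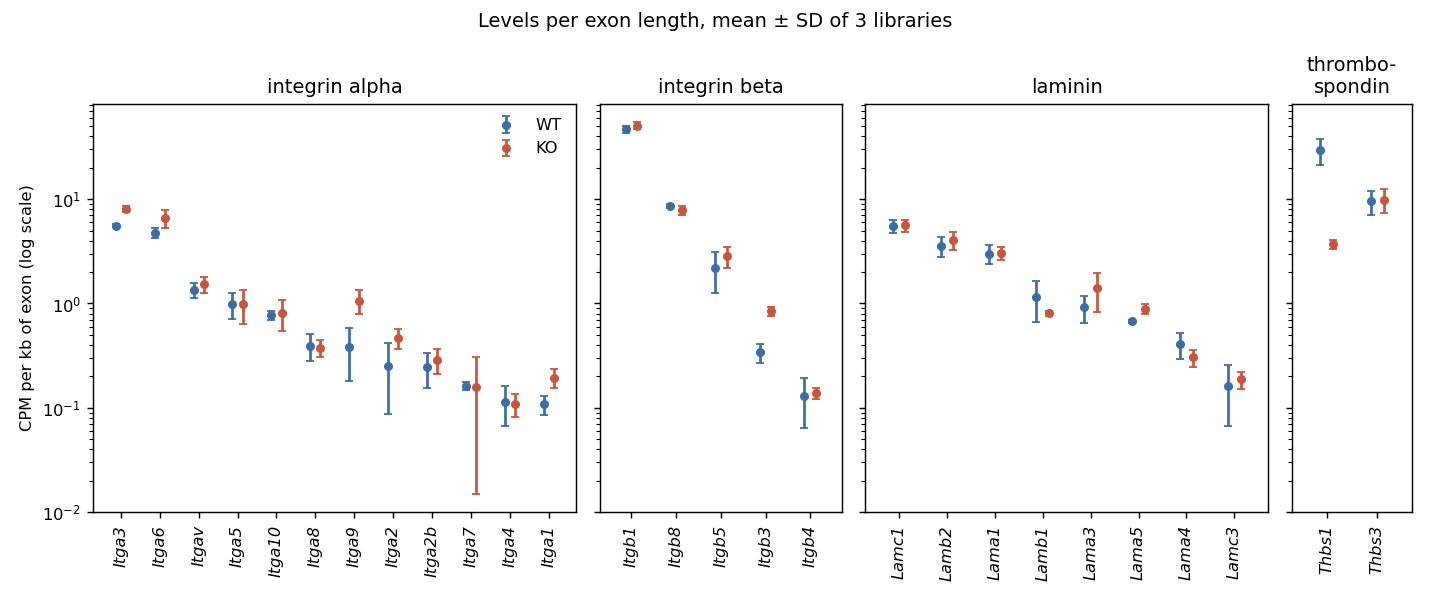
Level per exon length in CPM per kb (log axis) of the tested members shown, in WT and KO, as mean ± SD of 3 libraries, ordered by the WT level within each role. Itgb1 is highest in both genotypes, and Thbs1 drops from 29.5 in WT to 3.70 in KO, below Thbs3.

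Ligands and receptors differed mainly through Thbs1. The summed level per length of the ligands over that of the receptors was 0.724, 0.668 and 0.849 in WT K77, K79 and K80 and 0.364, 0.339 and 0.399 in KO, with no overlap. Leaving Thbs1 out, the ratio was 0.343 ± 0.0378 in WT and 0.323 ± 0.027 in KO, and the groups overlapped. Thbs1 supplied 53.2 ± 10.4% of the summed ligand level in WT and 12.1 ± 1.43% in KO. Summed alpha subunits stood at 15.5 ± 0.90 CPM per kb in WT and 21.0 ± 1.87 in KO with no overlap, and summed beta subunits at 58.2 ± 3.99 and 62.4 ± 5.47 with overlap. Over genes, the median log2 fold change was 0.19 for the 17 tested receptors and 0.06 for the 11 tested ligands, against -0.01 for all tested genes. The ligand median was 0.27 without WT K79 and -0.06 without WT K80. These sums and medians are descriptions, since members are not replicates.

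Inside the cell, integrins act through an adhesion complex, and a few of its genes changed. Of 26 tested genes of that complex 3 rose and 1 fell, and 22 were not called, against 6.27% of all tested genes called. With the K number as a block, 6.13% of all tested genes were called higher and 4.45% lower. In the complex 4 were then called higher and 2 lower, the added genes being Rap1b and Dock1. Tln2, a talin that binds integrin tails, rose from 68.7 ± 8.56 to 126 ± 5.96 CPM, a log2 difference of 0.88 (SE 0.0897, edgeR adjusted p = 0.00039). Of the parvins, which link the complex to actin, Parvb and Parva rose as well. Their log2 differences were 0.81 (edgeR adjusted p = 0.00537) and 0.46 (0.0115). The parvin gene Parvg (6 to 12 counts per library) and the complex gene Ilk (0 to 3) fell below the filter and were not tested. Bcar1, a docking protein of focal adhesions, fell by 0.28 on the log2 scale (adjusted p = 0.028). Tln1 (-0.14, adjusted p = 0.533) and the focal adhesion kinase gene Ptk2 (-0.02, adjusted p = 0.897) were not called. With WT K77 or KO K79 left out Parva was not called (highest adjusted p 0.0694), and Bcar1 kept its call only when WT K79 was the library left out (highest adjusted p 0.114).

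Other matrix ligands of integrins included 1 called gene among 19 tested, where 6.27% of all tested genes were called. Npnt, which encodes nephronectin, a ligand of the alpha 8 integrin, held 65, 88 and 101 counts in WT and 251, 261 and 288 in KO. It rose from 8.37 ± 1.25 to 27.3 ± 2.46 CPM, a log2 difference of 1.70 (SE 0.136, edgeR adjusted p = 0.000105), while its receptor gene Itga8 did not differ detectably (-0.06, adjusted p = 0.936). The block, with which 10.6% of all tested genes were called, added Vcam1 (0.39, blocked adjusted p = 0.0371) and Col1a2 (1.33, blocked 0.0221). Col1a2 is also among the pericyte and meningeal markers given above. The fibronectin gene Fn1 (-0.11, adjusted p = 0.734) and the tenascin gene Tnc (-0.13, adjusted p = 0.833), whose products bind integrins of the called subunits, were not called.

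Of 12 tested basement membrane partners of laminin 1 was called, where 6.27% of all tested genes were called. Frem2, an extracellular matrix protein of epithelial basement membranes, rose from 6.95 ± 2.83 to 15.7 ± 3.62 CPM (log2 difference 1.18, edgeR adjusted p = 0.0298). The Frem2 call ended when WT K77, WT K80, KO K79 or KO K80 was left out (highest adjusted p 0.136). The perlecan gene Hspg2 (0.05, adjusted p = 0.944), the nidogen gene Nid1 (-0.50, adjusted p = 0.386) and the agrin gene Agrn (0.11, adjusted p = 0.502) were not called.

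Receptors of laminin and thrombospondin other than integrins gave 2 calls among 24 tested, where 6.27% of all tested genes were called. With the K number as a block, where 10.6% of all tested genes were called, there were 5, the added genes being Lrp8 (0.21), Sdc3 (0.27) and Bai3 (0.24). Large, whose enzyme builds the sugar chain by which dystroglycan binds laminin, fell from 295 ± 42.9 to 189 ± 26.8 CPM, a log2 difference of -0.64 (SE 0.119, edgeR adjusted p = 0.0106). Leaving out either KO K79 or KO K80 ended the Large call (highest adjusted p 0.0674). Bai2, an adhesion receptor with thrombospondin repeats, rose by 0.53 (adjusted p = 0.00215). The dystroglycan gene Dag1 (0.19, adjusted p = 0.374) and the thrombospondin receptor genes Cd47 (0.10, adjusted p = 0.455), Lrp1 (-0.15, adjusted p = 0.328) and Cacna2d1 (0.20, adjusted p = 0.751) were not called.

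Among 8 tested relatives of these families outside the naming rule 3 rose, where 3.64% of all tested genes were called higher. Ntn1, a netrin built on a laminin-like domain, rose from 100 ± 38.0 to 244 ± 23.7 CPM, a log2 difference of 1.28 (SE 0.203, edgeR adjusted p = 0.00447). Thsd4, with thrombospondin repeats, rose by 1.28 (adjusted p = 0.00457), and Ntn3 by 0.42 (adjusted p = 0.0111, or 0.0552 without KO K80).

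**Figure D4:**
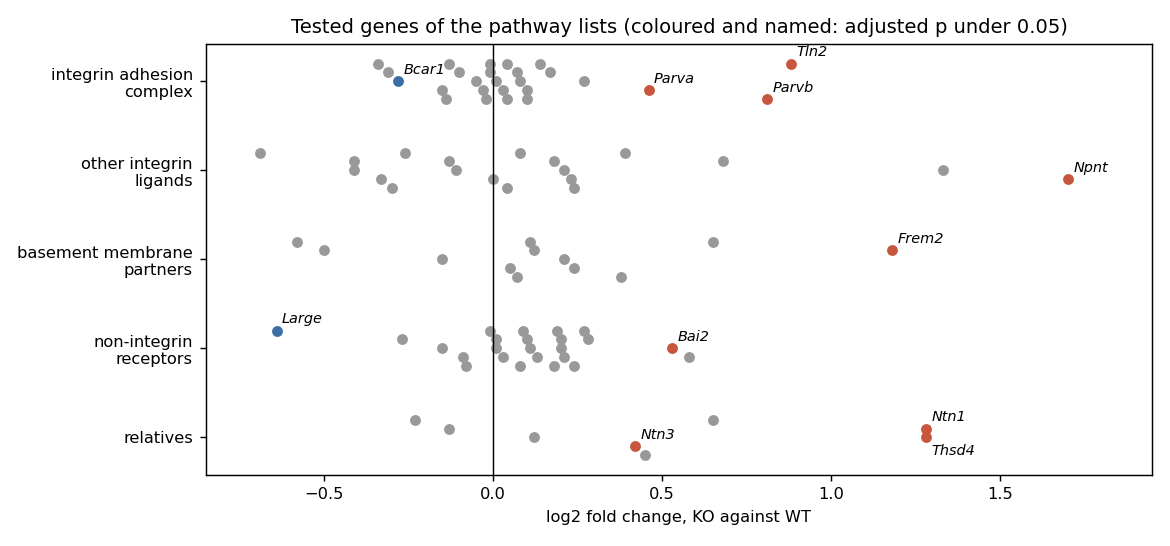
Log2 fold change, KO against WT (horizontal axis), of each tested gene in 5 lists around integrins, laminins and thrombospondins (rows, with points spread vertically for legibility). Named points are edgeR calls, from Large at -0.64 to Npnt at 1.70.

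The authors' deposited table of the comparison called 3.37% of its genes higher and 2.17% lower in KO. It lists Itga3 (log2 fold change 0.54, adjusted p = 0.000435), Itga6 (0.46, 0.00125), Itga9 (1.47, 7.51e-07) and Itgb3 (1.31, 0.000765) as higher. In the authors' deposited table Thbs1 is the member called lower (-3.0, adjusted p = 3.07e-170), and Thbs2 (1.81) has an adjusted p of 0.0807.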

How the data were processed

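RNA-seq of 6 libraries of sorted cells was used. Tools listed in the submitters' processing notes are TopHat 1.2.0, HTSeq 0.5.3p3 and DESeq 1.2.2, and the build listed there is mm9, with annotation and strand setting not given in the sources used here. Library files as deposited hold raw read counts per gene, equal in the 6 library files and the series table in all 36291 rows. Rows naming no gene stayed out (unassigned 19.75 to 21.77%, ambiguous 1.94 to 1.99% of counts). Per the file headers, the authors' deposited table gives a fold ratio, its log2, p-values and adjusted p-values. Its groups are headed A and B, and it was read as KO over WT because all 777 calls shared with edgeR had the same sign.

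Counts were fitted in R 4.3.3 with edgeR 4.0.16 (TMM, filterByExpr with a minimum count of 10, quasi-likelihood test, Benjamini-Hochberg at 0.05 over 13835 genes). For the SE, the absolute log2 difference was divided by the root of the F statistic. Intervals are 95% and can be too narrow at few counts. CPM uses TMM-scaled library sizes. Exon lengths came from GENCODE M21 (GRCm38), which is not the authors' build, and served only to order levels. Alternatives were RLE factors, DESeq2 1.42.0, limma 3.58.1 voom, other filters, the K number as a block and each library left out. Leaving out both K79 libraries was added after the data had been seen.

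Same-numbered libraries deviated together (correlation of deviations 0.274 for K77, 0.216 for K79 and 0.196 for K80, each above the limit of 0.1). What the number stands for is not given in the labels. It was taken to pair libraries only in the fit with the block. The main fit, with its SE and intervals, left the pairing out. Replicates differed beyond sampling noise (chi-square per degree of freedom 3.61 to 10). Values in every library are given for members called with or without the block and for the 3 most abundant of each role. From each list up to 4 called genes of lowest p are named, and other genes were chosen after their values were seen. The values of 1 tested member are not reported here, though it stays in the counts. Members and lists were chosen with earlier results of these data known.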

Additional observations from a re-analysis of the deposited data

How the results depend on the processing

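The direction and side of the threshold of Thbs1 and Itga3 were the same under each of the 13 alternatives, RLE factors, DESeq2, limma voom, other filters, the replicate block and each library left out among them. Itga9 lost its call in 4 of the fits that left out 1 library, and without both K79 libraries Itga9 (1.35) and Itgb3 (1.36) were not called and 1 member was called higher. Leaving out 1 library, members called higher numbered 2 to 4 and lower 1 to 2. Calls over all genes, 867, became 1463 with the replicate block and 445 to 1044 with 1 library left out. With 1 library left out, calls numbered 2 to 4 in the adhesion complex, 0 to 2 in basement membrane partners, and 1 to 3 in non-integrin receptors. The replicate block gave 3 calls among other integrin ligands (2 with no filter) and 5 among non-integrin receptors (4 by DESeq2), and of the 28 tested members it changed the call of Itga6 alone. The median log2 fold change ran from -0.06 to 0.27 for ligands with 1 library left out. Near 0, signs turned: Lama1 gave 0.00 by limma voom, -0.01 with no filter and -0.13 to 0.17 with 1 library left out, Lamc1 -0.09 to 0.13 and -0.01 without both K79 libraries, and Thbs3 -0.16 to 0.27. The cause of these changes was not tested. How depth limits the members of low count was not tested.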
